A study of Homo sapiens with 4 samples.

Results

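The replication-dependent histone genes supply the histones that package newly copied DNA, and most of them lie packed together in a few clusters. The members described here were chosen by name and place: every protein-coding gene on chromosome 6 from 25.5 to 28.0 Mb, or on chromosome 1 from 149.5 to 150.0 Mb or from 228.3 to 228.6 Mb (hg38), whose symbol names it as an H1, H2A, H2B, H3 or H4 gene. The rule found 69 of 20037 protein-coding genes: 6 of linker histone H1, 17 of H2A, 18 of H2B, 14 of H3 and 14 of H4. Whether they were transcribed was not measured. Their acetylation at lysine 14 of histone H3 (H3K14ac) was mapped by chromatin immunoprecipitation and sequencing (ChIP-seq) in MKN45, an established human gastric cancer cell line grown in DMEM with serum. The study had 4 samples: an H3K14ac library and an input library from cells carrying the control hairpin shNT, and the same pair from cells carrying shNIT2, a hairpin against the omega-amidase gene NIT2. The labels give each hairpin by its target alone. The values came from the 2 lists of enriched regions that the authors called, 1 per H3K14ac library; the input libraries were not analysed here. With 1 library per condition, no difference between the lists has a replicate check and none was tested.

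Each replication-dependent histone gene is short and intron-poor and makes an RNA that ends in a stem-loop in place of a poly(A) tail. The genes are switched on together as cells enter S phase, through the coactivator NPAT, which is phosphorylated by cyclin E with CDK2. H2A and H2B genes often lie head to head and share a promoter, in which the octamer bound by POU2F1 (OCT1) is a known H2B element. H3K14ac is a mark found near the starts of active genes, and histone H3 is itself a product of the clusters described here.

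The sequences before the gene starts are shown for the H3 gene and the H2B gene with the strongest regions, for a head-to-head pair with a region on either flank, and for a pair with none. All are from RefSeq (GRCh38.p14), which gave a promoter window for 64 of the 69 members. Each is the 250 bases before the start, 5′ to 3′ on the strand of the named gene. Capitals mark TATAAA (the TATA box), CCAAT and the octamer ATTTGCAT on either strand; in H2BC12 a TATA match on one strand overlaps a match on the other.
H3C6 (chr6:26223928-26224177, plus strand): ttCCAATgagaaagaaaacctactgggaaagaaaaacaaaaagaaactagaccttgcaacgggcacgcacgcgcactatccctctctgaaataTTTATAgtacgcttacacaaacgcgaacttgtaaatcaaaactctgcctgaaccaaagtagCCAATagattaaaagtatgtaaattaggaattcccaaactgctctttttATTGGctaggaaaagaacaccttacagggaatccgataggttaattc
H2BC12 (chr6:27146859-27147108, minus strand): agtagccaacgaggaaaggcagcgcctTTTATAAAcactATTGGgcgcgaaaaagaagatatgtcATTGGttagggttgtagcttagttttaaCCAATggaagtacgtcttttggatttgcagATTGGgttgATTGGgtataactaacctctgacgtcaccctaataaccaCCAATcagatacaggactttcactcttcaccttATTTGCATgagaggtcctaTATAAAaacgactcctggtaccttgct
H2AC8 (chr6:26216671-26216920, plus strand): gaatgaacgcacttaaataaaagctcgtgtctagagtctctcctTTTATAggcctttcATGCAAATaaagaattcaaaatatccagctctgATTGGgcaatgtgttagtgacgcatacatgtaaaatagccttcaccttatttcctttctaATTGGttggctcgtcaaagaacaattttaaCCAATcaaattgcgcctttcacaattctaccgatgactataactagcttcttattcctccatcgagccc
H2BC14 (chr6:27814772-27815021, plus strand): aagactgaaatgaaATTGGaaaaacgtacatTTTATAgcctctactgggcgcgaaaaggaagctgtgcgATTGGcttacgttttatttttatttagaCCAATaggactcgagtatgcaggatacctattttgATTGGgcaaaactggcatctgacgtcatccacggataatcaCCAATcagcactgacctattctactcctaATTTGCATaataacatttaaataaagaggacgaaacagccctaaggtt
The sequence before H2AC8 spans the whole gap of 232 bp between it and H2BC8. That before H2BC14 likewise spans the 244 bp to H2AC14. H2BC14, whose pair had no region in either list, holds the octamer 48 bases before its start, and H2BC12 holds it 46 bases before. Over the full promoter windows, 250 bases before to 50 after the start, TATAAA was in 65.6% of the 64 members against 9.63% of 15843 protein-coding genes. CCAAT was in 85.9% against 36.4%, and the octamer in 40.6% against 1.7%. The octamer was in 14 of 18 H2B and 11 of 16 H2A genes, in 1 of 12 H3 genes and in 0 H1 and H4 genes. The windows of H3C4 and H2AC7 are identical, so 1 sequence counts in both the H3 and the H2A family. In a head-to-head pair both windows cover the shared gap, so the same motif can count for both genes. The octamer 192 bases before H2AC8 lies in such a gap. CCAAT was in every H1, H2A, H2B and H3 window and in 3 of 12 H4 windows. TATAAA was about as frequent in the 26 windows of members that had a region in the shNIT2 list (65.4%) as in the 38 that had none (65.8%). The octamer was in 13 of the marked and 13 of the unmarked windows, and CCAAT in 21 and 34.

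The lists rest on unequal numbers of fragments, and this bounds every comparison of them. The fewest fragments per position that the peak caller took as background, the floor, was 0.278 for the control and 2.48 for the knockdown, 8.93 times as high. The shNT list held 39876 regions on a median of 6 fragments at the summit, and the shNIT2 list 28187 on a median of 22. No shNT region rested on fewer than 3 fragments. Total reads per library are not known from these lists.

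Of the 69 clustered histone genes, 28 had a region in the shNIT2 list within their span extended by 1 kb on both sides, 2 had one in the shNT list, the same 2 had both, and 41 had neither. Such a gene is called marked below. The members' share in shNIT2 was 40.6%, against a background of 47.0% of all protein-coding genes. In shNT it was 2.9%, against 28.5%. A long gene has more room for a region than a short one, and 61 of the 69 members span at most 1 kb. Of these 61, 21 (34.4%) were marked in shNIT2, against 5.35% of the 467 other protein-coding genes of such length. In shNT 0 of the 61 were marked, against 1.28%. Neighbouring members can share a region through the extension, so the 61 are not independent of each other. With no extension, 12 of them (19.7%) were marked in shNIT2, against 3.21% of the other genes of such length. Among those 467 genes, 215 are olfactory receptor, keratin-associated protein or defensin genes, which few tissues express. Without them the shares were 9.92% in shNIT2 and 1.98% in shNT. Of the 34 other protein-coding genes in the same 3 windows, 9 (26.5%) were marked in shNIT2 and 2 (5.88%) in shNT. None of these differences was tested. How the members' share in shNIT2 compared with that of all genes depended on the setting. At 3 kb on both sides the order turned: 36 members (52.2%) were marked and 49.1% of all genes. With no extension the members' share was 27.5% and that of all genes 43.0%. Keeping only regions with −log10 q of at least 5 gave 17.4% and 36.0%, and of at least 10 gave 11.6% and 22.7%.

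**Figure D1:**
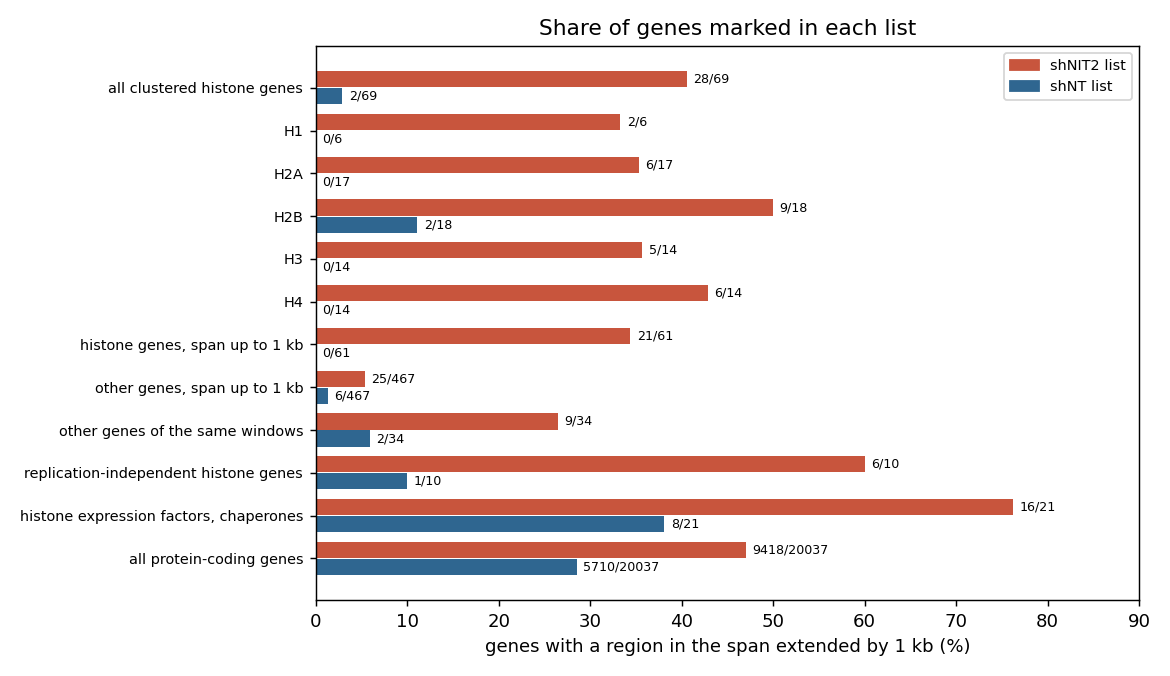
Percentage of genes with a region in the span extended by 1 kb, for the clustered histone genes, their families and the comparison sets; red bars are the shNIT2 list, blue bars the shNT list, and the labels give marked over measured genes. The histone genes with a span up to 1 kb stand at 34.4% in shNIT2 and the other genes of that length at 5.35%.

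Each histone family had marked and unmarked members. In shNIT2, 2 of 6 H1 genes, 6 of 17 H2A genes, 9 of 18 H2B genes, 5 of 14 H3 genes and 6 of 14 H4 genes were marked. The lowest share was 33.3%, in H1, and no family was without the mark and none carried it throughout. Both genes marked in shNT were H2B genes. The H3 gene H3C4 was marked in shNIT2 by a region that also lay over H2AC7, with which it shares its annotated start. Some members were marked only through the extension of 1 kb, and with none 19 members were marked in shNIT2. Among H2A genes, the regions of H2AC11 (579 bp away), H2AC12 (469 bp), H2AC17 (546 bp) and H2AC19 (712 bp) lay inside a neighbouring member.

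By place, the marked members lay mostly in one block. The members form 6 blocks when a gap of over 200 kb starts a new one. The largest, on chromosome 6 from 26017032 to 26285534, had 18 of its 32 genes marked in shNIT2, with 19 regions, and both genes marked in shNT. The small block from 27132316 to 27147562 had 4 of 5 marked. The block from 27807479 to 27893891 had only 3 of 16, and the chromosome 1 block from 149782689 to 149887965 had 3 of 11. Neither the 3 genes on chromosome 1 from 228424845 to 228458558 nor the pair H2AC1 and H2BC1 were marked in either list. H2AC1, H2BC1 and H3-4, of these 5, are known as testis histones. The members' extended spans cover 6.42% of the 3.3 Mb of the windows. They held 26 of the 50 shNIT2 regions there (52.0%) and 2 of the 25 shNT regions (8.0%). Most of the other 24 shNIT2 regions lay in other genes, such as BTN2A1, TRIM38 and SCGN. No such share was taken for the spans of other genes, so this is not shown to be particular to the histone genes.

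The strongest regions in shNIT2 lay at H3, H4 and H2B genes of chromosome 6. The values that follow are the authors' fold over the local background, which ranks regions within a list, and the fragments at the summit solved from it. H3C6, an H3 gene (chromosome 6, 26224178 to 26227473), had the highest, with a region from 26224412 to 26224950 at 7.54-fold on 45 fragments. This region was among the top 13.2% of the list by fold. The annotated span of H3C6 is 3296 bp, and where the short histone unit lies in it was not examined. Its printed sequence and its distances here are therefore those of the annotated start only. In shNT the nearest region lay 51745 bp from this gene. A region from 27146212 to 27146637 at 6.37-fold on 39 fragments lay inside H2BC12 and 469 bp from H2AC12, so 1 region marks both genes. A second region in H2BC12, from 27144940, was weak at 2.49-fold on 19 fragments. The nearest shNT region lay 16632 bp from H2AC12.

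H3C1 and H4C1 also shared their regions. The stronger one, from 26020726 to 26021364, covered the end of H3C1 at 6.19-fold on 41 fragments, and the weaker one, from 26021720 to 26022075, lay over H4C1 at 3.12-fold on 20 fragments. At the neighbouring H4 gene H4C2 (26026896 to 26027283) a region of 5.79-fold on 38 fragments lay 487 bp past the gene, touching none of its span. H4C5 was alike, with a region of 5.19-fold on 34 fragments that began 397 bp past the gene. These genes had no shNT region in their extended spans, the nearest being 22775 bp from H4C2. H2BC4, described below, came next at 5.05-fold on 28 fragments, then H3C7 at 4.83-fold on 21 and H4C11 at 4.26-fold on 25. H4C11 needs care: its promoter window matches that of H4C12 at 98.3% of positions, H4C12 was marked in neither list, and the labels do not say how reads matching several places were counted. H4C14 and H4C15 have identical windows. The region of H4C15 lay 10810 to 11429 bp after its start, so the windows do not tell whether its reads match several places.

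The weakest marked members stood at the foot of the list. H2BC21 on chromosome 1 had 2.56-fold on 13 fragments, and 96.7% of all shNIT2 regions were as strong or stronger. H1-4, a linker histone gene, had 2.67-fold on 17 fragments. H4C15 and H2AC19 shared a region of 2.93-fold on 15 fragments, and H3C8 had 2.95-fold on 20. The other marked members lay between these and H4C11: H2BC9 at 4.14-fold, H4C8 at 4.08-fold, H2BC8 and H2AC8 at 3.92-fold, H1-2 at 3.86-fold, H2BC11 and H2AC11 at 3.64-fold, H2AC17 and H2BC17 at 3.62-fold, H3C4, H2AC7 and H2BC7 at 3.17-fold, and H2BC5 at 3.13-fold. As a group the 26 regions were modest. Their median fold was 3.75 (range 2.46 to 7.54) against 4.21 for the whole list, 17 lay below that list median and 4 above its upper quartile of 5.75. Their median width was 476 bp against 573 bp, and 9 of them touched more than 1 member. The background under them was 1.35 to 3.86 times the floor.

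Only H2BC4 and H2BC5 were marked in the shNT list. Both are H2B genes whose annotated span, 10757 bp and 13229 bp, runs far past the short histone unit at the start. In H2BC4 (26113170 to 26123926, minus strand) a shNT region from 26121829 to 26122115 had 7.29-fold on 9 fragments. It lay within a shNIT2 region from 26121700 to 26122797, which had 5.05-fold on 28 fragments. This was the 1 place at a clustered histone gene where the lists overlapped, and the shNT region begins 1811 bp past the gene start. H2BC4 held 2 further shNIT2 regions, of 4.89-fold on 33 fragments and 2.94-fold on 14. In H2BC5 (26158121 to 26171349) the regions lay apart. The shNIT2 region, from 26158461 to 26159243, was near the start on 16 fragments, while the shNT region, from 26172188 to 26172433, lay 839 bp past the far end, at 4.13-fold on 7 fragments. Without the 8 members of a span over 1 kb, an alternative chosen after seeing the data, the shNT list marked 0 of 61.

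Scaled by the ratio of the floors, most of the shNIT2 regions fell below the smallest fragment count in the control list. Divided by 8.93, the ratio of the floors, the fragments at the 26 regions came to a median of 2.24 and a maximum of 5.04; a floor rises with fragment length as well as depth, so this scaling is approximate. For 19 of the 26 the scaled value was under 3 fragments, the fewest behind any shNT region. At these the lack of a shNT region is therefore not a detectable difference. The 7 regions at 3 or more were those of H3C6 (5.04), H3C1 with H4C1 (4.59), H2BC12 with H2AC12 (4.37), H4C2 (4.25), H4C5 (3.81) and 2 of H2BC4 (3.69 and 3.13). Of these, the last overlapped a shNT region, which had 9 fragments. A higher local background calls for more fragments, and 3 is the fewest anywhere in the control list. In shNIT2 the background under these 7 regions was 1.91 to 2.4 times the floor. A scaled value of 3 or more therefore does not show that a region would have been called in shNT. Depth and condition cannot be told apart with these libraries.

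**Figure D2:**
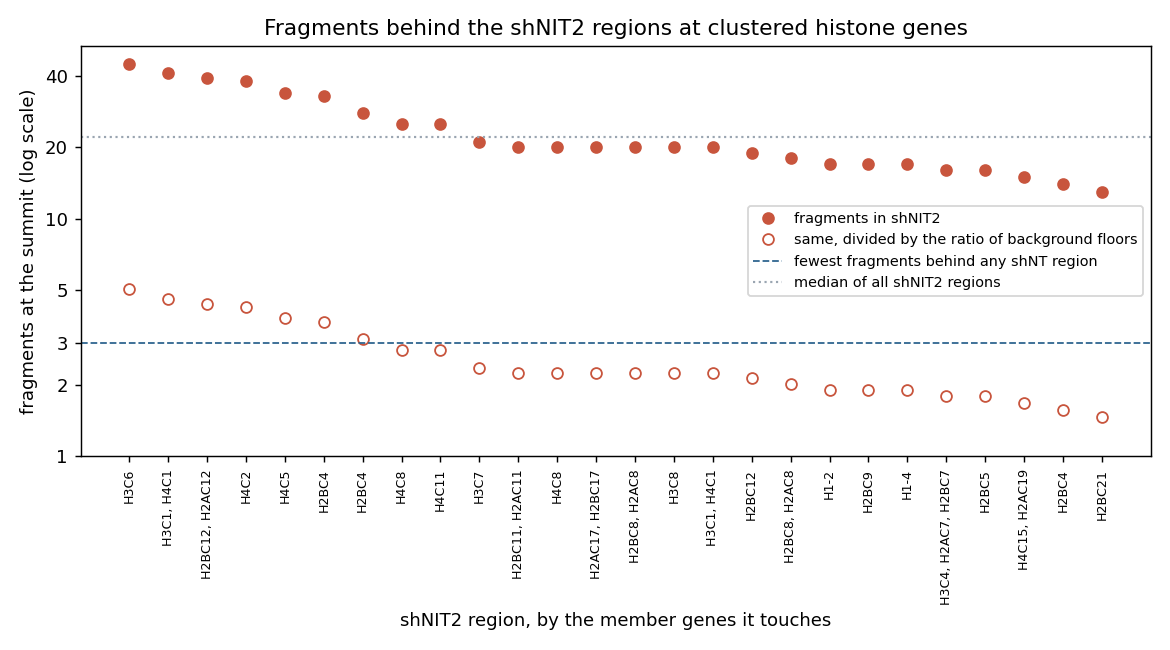
Fragments at the summit of each of the 26 shNIT2 regions at clustered histone genes (filled points) and the same values divided by the ratio of the background floors (open points), on a log scale. The dashed line is 3 fragments, the fewest behind any shNT region, and 19 open points lie below it; the dotted line is 22, the median of all shNIT2 regions.

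At the members, regions in shNIT2 lay to the sides of the gene starts. Of the 64 members with a known strand, 26 were marked, and 0 of these had a region touching the promoter window from 250 bases before to 50 after the start. Among all other protein-coding genes with a known strand, 1974 of the 7743 marked genes (25.5%) had such a region, and 12.5% of all 15779 did. Among other genes with a span up to 1 kb it was 7 of 21 marked genes (33.3%). The closest region edge stood 57 bp after a start, at H3C7, and 318 bp before one, at H1-4. Summits from 500 bp before to 250 bp after the start, bounds chosen after seeing the data, occurred at 0 of 64 members and at 10.8% of the other genes. The other genes also had few summits just before the start: 0.856% had one in the last 250 bp, against 5.25% in the 250 bp before that and 4.91% in the 250 bp after the start. From 250 to 500 bp after the start 9.38% of members and 16.9% of the other genes had a summit, and from 500 to 750 bp 14.1% and 5.44%. No test was made of these differences, since neighbouring members share regions and there is 1 library.

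The summit of the strongest region per marked member lay at a median of 534 bp after the start (quartiles 413 and 713). Among the 19 marked members of a span up to 1 kb it lay past the gene's far end in 9, inside the gene in 4, before the start in 5, and over 1 kb before it in 1. For the other genes of such length, with 21 marked, these counts were 4, 4, 10 and 3 (the last counting summits over 1 kb beyond either end). RefSeq gives H3C4 and H2AC7 the same start, so their positions are 1 observation. Apart from H1-4, the members with a summit before the start took it from a region that touches a neighbouring member's span. These were H2BC7 (region at H2AC7), H2AC8 (at H2BC8), H2AC11 (at H2BC11), H2AC17 (at H2BC17) and H2AC19 (at H4C15). Such a region is counted again for the neighbour where that is also of this length. H1-2 had the summit nearest to its start, 405 bp after it. H4C15 had the farthest, 11256 bp after the start, inside a span of 16753 bp; the region there also touches the H2B pseudogene H2BC20P. Just inside the limit of 1 kb around the gene, the region of H2AC19 lay 712 bp away, and just outside it those of H2AC20 and H2AC6 lay 1326 and 1375 bp away.

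**Figure D3:**
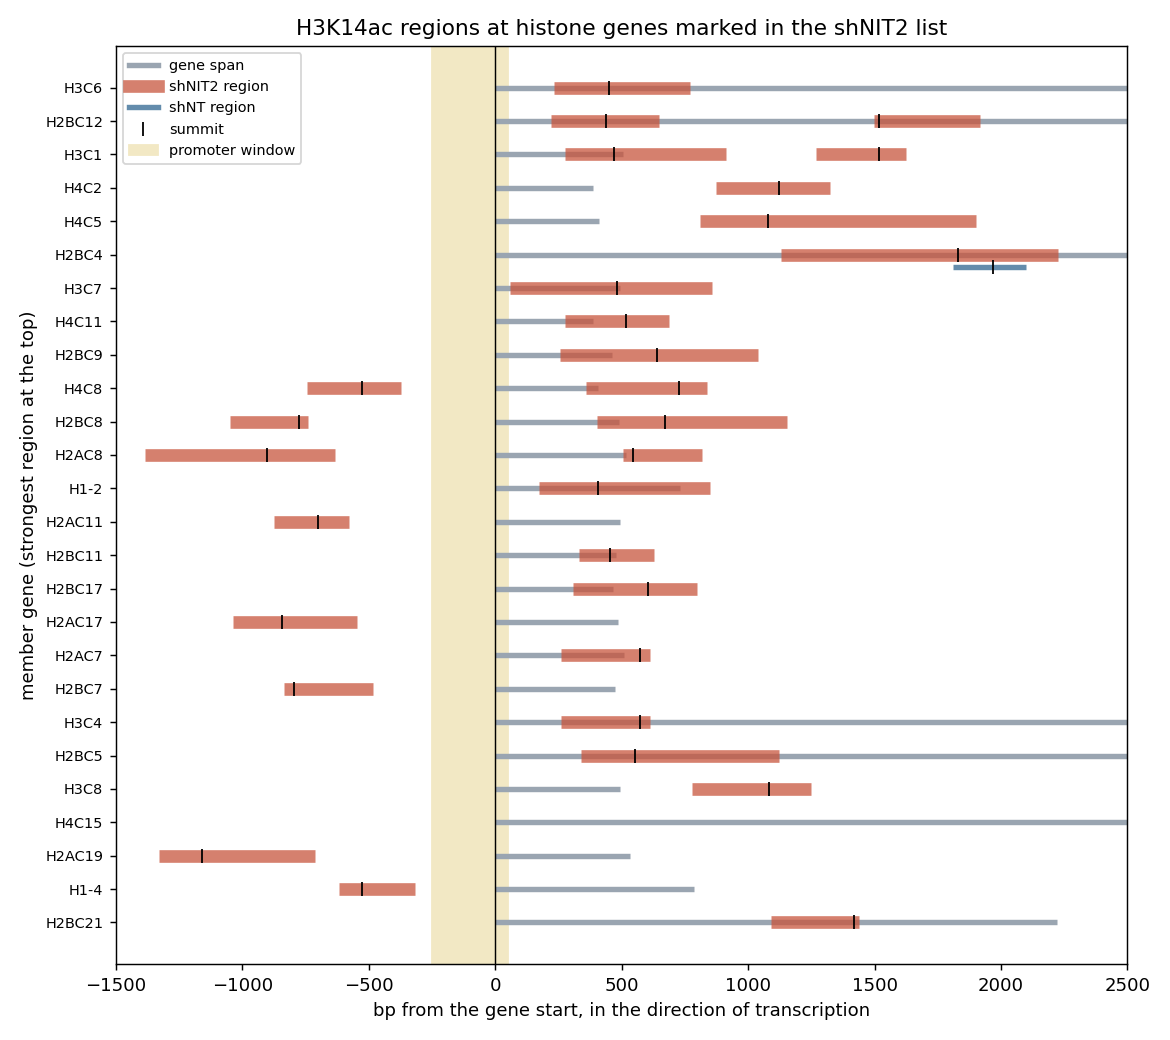
H3K14ac regions of the shNIT2 list (red) and the shNT list (blue) around the starts of the 26 marked members with a known strand, in bp along the direction of transcription; grey bars are the gene spans, ticks the summits and the pale band the promoter window. No red or blue bar enters the pale band. The region of H4C15, the shNT region of H2BC5 and all but the highest-fold shNIT2 region of H2BC4 lie beyond the right edge.

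**Figure D4:**
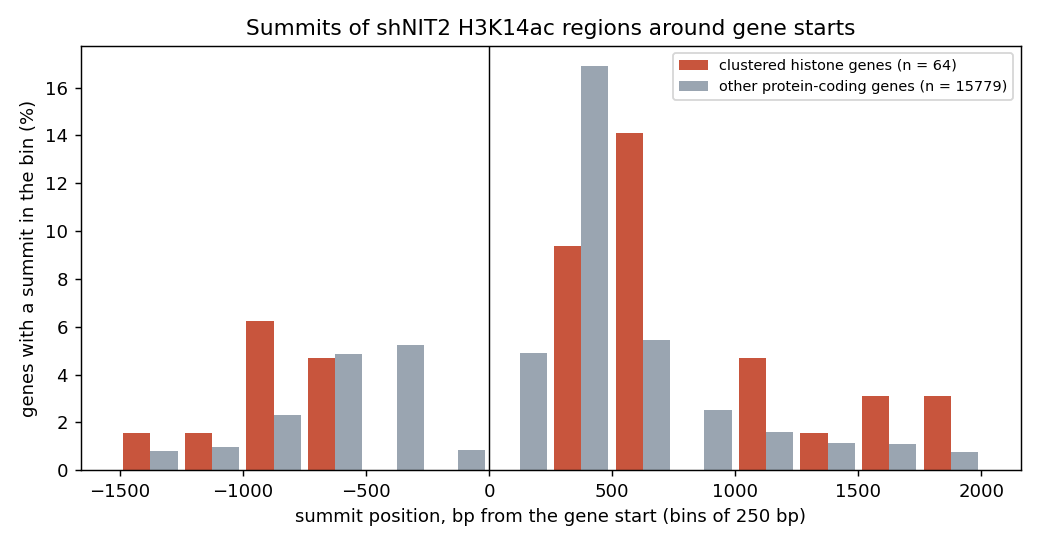
Percentage of genes with a shNIT2 summit in each bin of 250 bp around the gene start, for 64 clustered histone genes (red) and 15779 other protein-coding genes (grey). No histone gene has a summit from 500 bp before to 250 bp after the start, whereas 10.8% of the other genes do.

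Head-to-head pairs are described by the side on which their regions lay. Among members with a known strand, 12 pairs of neighbours had starts facing away from each other at most 1 kb apart. Of these pairs, 11 were of H2A with H2B and 1 of H3C7 with H2BC9. Their gaps measured 193 to 978 bp (median 237). In shNIT2, 7 pairs had a region within 1 kb and in 0 of the 12 did a region touch the gap. For the 11 pairs of H2A with H2B, whose gaps lie within the promoter windows, this restates the result above. H2BC8 and H2AC8, whose shared promoter is printed above, had a region over the end of each gene: one from 26215535 to 26216286 (3.92-fold, 18 fragments) on the H2BC8 side and one from 26217428 to 26217737 (2.62-fold, 20 fragments) on the H2AC8 side. H3C7 and H2BC9 were likewise flanked, at 4.83-fold and 4.14-fold. The other 5 marked pairs had regions on one side only, that of the H2B gene in 4 (H2BC21, H2BC4, H2BC11 and H2BC17) and that of the H2A gene in 1 (H2AC7). The 5 pairs without a region were H2AC25 with H2BC26, H2AC1 with H2BC1, H2BC13 with H2AC13, H2AC14 with H2BC14 and H2AC15 with H2BC15. In shNT the only region at a pair was that in H2BC4. H2BC12 and H2AC12 lie side by side but were not counted as a pair, because the strand of H2AC12 was not known. Their shared shNIT2 region, at 6.37-fold, lay inside H2BC12.

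The 41 members marked in neither list are as follows. In the largest block they were the linker histone genes H1-1, H1-3 and H1-6 (the last a testis histone), H2AC4, H2AC6, H2BC3, H2BC6, H2BC10, H3C2, H3C3, H4C3, H4C4, H4C6 and H4C7. The block from 27807479 to 27893891 held 13 more: H1-5, H2AC13, H2AC14, H2AC15, H2AC16, H2BC13, H2BC14, H2BC15, H3C10, H3C11, H3C12, H4C12 and H4C13, with H4C9 in the block before it. On chromosome 1 they were H2BC18, H3C13, H4C14, H3C14, H2AC18, H3C15, H2AC20, H2AC21, H3-4, H2AC25 and H2BC26. H2AC1 and H2BC1 complete the list. Some lay close to the limit, such as H2AC20 above. Others lay far from any region, with 64304 bp from H2AC1 to the nearest shNIT2 region. H2BC15 had a shNT region 1228 bp away, just past the limit.

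Histone genes outside the clusters, most of which are expressed throughout the cell cycle, were compared by the same rule. Of 10 genes, 6 (60.0%) were marked in shNIT2, against 47.0% of all protein-coding genes. In shNT 1 (10.0%) was marked, against 28.5%. This gene was marked in both lists, and 4 were in neither. The highest folds were those of MACROH2A1, a macroH2A variant (14.95-fold, 51 fragments), and H2AX, the variant phosphorylated at DNA breaks, whose gene also makes a stem-loop RNA in S phase (9.74-fold, 79 fragments). Both exceeded H3C6, the strongest clustered member. H1-10 had 4.45-fold, H3-3B, which encodes H3.3, 4.23-fold, and H2AZ2 2.33-fold. MACROH2A2 was marked in both lists, at 4.74-fold on 19 fragments in shNIT2 and 3.76-fold on 4 in shNT. H3-3A, H2AZ1, H2AJ and CENPA, the centromeric H3, were marked in neither. All 10 genes have a span over 1 kb, so their share is not comparable with that of the clustered genes by length.

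The factors that switch on and process histone RNAs, with the chaperones that deliver histones to DNA, were marked more widely. Of 21 genes, 16 (76.2%) were marked in shNIT2 and 8 (38.1%) in shNT, all 8 of them in both. The backgrounds are the 47.0% and 28.5% given above, and these genes are long, from 4473 bp to 206461 bp. The highest in shNIT2 were CPSF2 of the cleavage complex that cuts histone RNAs (10.23-fold), SLBP, which binds the stem-loop (8.16-fold), and POU2F1 (7.26-fold). CPSF2 (6.59-fold, 8 fragments), ERI1, an exonuclease that trims histone RNA (5.48-fold, 6 fragments), and POU2F1 (4.55-fold, 5 fragments) were highest in shNT. SLBP, NPAT and CCNE2, which encodes cyclin E2, each had 3.91-fold on 4 fragments there, ZNF473 had 3.87-fold on 4 and CHAF1A 3.11-fold on 3. NPAT had 3.14-fold on 10 fragments in shNIT2. NASP, CPSF3, CASP8AP2, SYMPK and CSTF2 were marked in neither list.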

How the data were processed

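Per the labels' protocols, H3K14ac chromatin from fixed cells was sequenced with single-end reads. Named in the submitters' processing notes are Bowtie2 2.2.6, MACS2 2.1.1, the read trimmers Trimmomatic 0.35 and cutadapt 1.9.1, FastQC, ChIPseeker and the build hg38. How duplicates, multiply mapped reads and the input were treated is not stated there. The deposited lists, 1 per library, give each peak a score, a fold (ratio) over background, −log10 p and −log10 q values (at least 1.3 in both, a q-value of 0.05) and a summit; these are the authors' values. Fragments and background were solved from fold and −log10 p with the Poisson upper tail (99.96% of regions of each list within 0.1%; tested on simulated data). Genes, spans and promoter windows came from RefSeq tables (GRCh38.p14); strand was known for 64 members. A gene was marked when a region touched its span extended by 1 kb by at least 1 bp. Coordinates are 1-based. The members and gene lists were chosen with earlier results of these data known. Named were the members marked in shNT, the 10 strongest and 5 weakest in shNIT2, those in neither list, and the nearest and farthest summits; the other marked members are given by fold. The promoters of H2AC8 and its pair were added after their values were seen. Protein sequences were not used here, and 1 gene of the list of histone genes outside the clusters is not reported here. Python 3.11.15, pandas 2.3.3 and scipy 1.17.1 were used. Alternatives varied the q threshold, the window, the overlap and the members included.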

Additional observations from a re-analysis of the deposited data

How the results depend on the processing

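With 1 library per condition, no paired analysis was possible because there are no replicates, and no library could be left out. Of 38 values under alternatives, 17 stayed within 1.5 times the reported value and 21 moved. When only regions with −log10 q of 5 or more were kept, 12 members and 11 regions were left in shNIT2 and 1 of each in shNT. In both lists there was then 1 gene. Of all genes, 36.0% were then marked in shNIT2 and 5.93% in shNT. At 10, there were 8 members and 7 regions in shNIT2 and 0 of either in shNT, with 0 genes in both. Of all genes, 22.7% were then marked in shNIT2 and only 1.03% in shNT. With no extension of the span, shNT kept 1 member (1.45%, against 26.8% of all genes) and 1 region, and 1 gene was in both. With 3 kb on both sides, 5 members (7.25%) were marked in shNT, against 31.0% of all genes. Requiring the regions to overlap by 1 bp left 1 gene in both lists, and a reciprocal overlap of 50% left 0. Without the members of a span over 1 kb, 0 members and 0 regions were left in shNT and 0 in both; within 1 kb of the gene start it was also 0 and 0. These last 2 alternatives were chosen after seeing the data. The number of members marked in shNIT2 was 19 to 36 over the alternatives that keep the q threshold. Under every q threshold and extension tried, the members of a span up to 1 kb were marked in shNIT2 more often than other genes of that length, from 8.2% against 2.36% at −log10 q of at least 10 to 47.5% against 7.07% at 3 kb. A share of genes at a given q is not comparable between libraries of unequal depth.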

Other observations

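The chromosome 6 window also holds a large group of transfer RNA genes, which lie among the histone genes. Of 103 tRNA genes in the 3 windows, 2 (1.94%) had a shNIT2 region within 1 kb and 1 (0.971%) a shNT region. Of the 340 tRNA genes elsewhere, 46 (13.5%) and 10 (2.94%) did. The region on chromosome 6 from 26285907 to 26286278 (2.46-fold) lies between H4C8 and a tRNA gene 248 bp away. Of 14 histone pseudogenes in the windows, 1 was marked in shNIT2, H2BC20P, by the weak region that also marks H4C15 and H2AC19, and 0 in shNT. The strongest shNIT2 region of the windows was not at a histone gene: it lay at one end of the span of BTN2A1, a butyrophilin that takes part in sensing by gamma delta T cells, from 26457978 to 26458442 at 9.4-fold on 58 fragments. Of the genes wholly inside the windows, the others marked in shNIT2 were SCGN, TRIM38, HFE, BTN3A2, TRIM11, RNF187, SF3B4 and MTMR11, and those marked in shNT were TRIM38 and ZNF184. OTUD7B, which crosses the edge of a chromosome 1 window and was not counted, had regions of both lists inside the window.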
